A study of Mus musculus with 9 samples.

Results

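The genes described here are 37 genes of protein folding in the endoplasmic reticulum (ER) and of the unfolded protein response, measured by RNA sequencing of mouse sciatic nerve. They were listed by name, as ER chaperones, disulfide isomerases and oxidases, ER-associated degradation (ERAD) factors, stress sensors and stress effectors, and all 37 were found among the 36121 genes of the table. A mean value of at least 1 over the 9 libraries was required for testing, which 36 of the 37 reached, against 15014 genes in all. Chac1 alone lay below it. The nerves came from C57BL6 mice aged 21 days, 3 per genotype, all floxed at Tardbp, the gene of the RNA-binding protein TDP-43: control mice were Tardbp fl/fl without Cre, cHet mice carried Cnp-Cre and Tardbp fl/+, and cKO mice carried Cnp-Cre and Tardbp fl/fl. Cnp-Cre recombines in Schwann cells of the nerve and in oligodendrocytes, while the nerve also holds fibroblasts, axons, vessels and immune cells that keep Tardbp. Since the controls lack Cre, an effect of the Cnp-Cre allele itself cannot be told apart from that of the deletion in cKO against control, whereas cHet and cKO both carry it. In whole nerve, fewer cells of a type and less RNA per cell cannot be told apart either.

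The ER folds secreted and membrane proteins, among them the myelin proteins that Schwann cells make in large amounts. When unfolded proteins build up, 3 sensors in the ER membrane respond: ATF6 is cut to release a transcription factor, IRE1 (Ern1) splices the mRNA of Xbp1, and PERK (Eif2ak3) phosphorylates a translation initiation factor, which lowers protein synthesis and favours the translation of ATF4. ATF6 and XBP1 raise the transcription of chaperones and degradation factors, and ATF4 raises that of Ddit3 (CHOP), Trib3, Chac1 and Asns. Only RNA levels were measured here, so that cleavage of ATF6, splicing of Xbp1 and phosphorylation by PERK were not analysed.

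The promoters of the main chaperone and of the 3 genes whose cKO libraries all stood above the other 6 are shown as the 100 bases before the annotated RefSeq start in GRCm38.p6, written on the strand of the gene. RefSeq promoter windows matched 32 of the 37 genes. The gene coordinates given below are from GENCODE, which starts Hspa5, Pdia3 and Hsp90b1 further upstream than RefSeq. The windows of Hspa5 and Pdia3 thus lie inside the GENCODE genes, and that of Hsp90b1 partly so.
Hspa5, chr2:34771990-34772089, plus strand: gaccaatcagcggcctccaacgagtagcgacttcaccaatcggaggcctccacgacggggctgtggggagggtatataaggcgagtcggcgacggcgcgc
Hsp90b1, chr10:86705445-86705544, minus strand: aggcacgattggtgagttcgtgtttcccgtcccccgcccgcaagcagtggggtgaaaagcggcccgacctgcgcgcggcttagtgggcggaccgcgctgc
Pdia3, chr2:121413802-121413901, plus strand: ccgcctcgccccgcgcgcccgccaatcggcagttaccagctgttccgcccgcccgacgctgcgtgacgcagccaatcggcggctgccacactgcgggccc
P4hb, chr11:120573254-120573353, minus strand: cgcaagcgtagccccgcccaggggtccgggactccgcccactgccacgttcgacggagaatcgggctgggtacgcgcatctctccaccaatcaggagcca
These stretches were rich in G and C, with 65% in Hspa5, 69% in Hsp90b1, 76% in Pdia3 and 68% in P4hb. The median over the windows of the members was 67%, against 55% over all 32851 windows. No motif search of these windows is reported here.

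The libraries summed to 934932 to 1158094 over all genes in normalized TPM, the unit of every level below, which is scaled per transcript length. Tardbp was 185, 194 and 217 in the control libraries, 177, 179 and 186 in the cHet libraries and 103, 94.2 and 103 in the cKO libraries. It was lower in cKO than in control by a log2 fold change of -0.98 (SE 0.09, limma adjusted p = 0.00219). The sample titles gave the groups, but the genotype field of 3 libraries differed from the title: cHet ID-2742, cKO ID-2744 and cKO ID-2747. Tardbp in cKO ID-2744 and ID-2747, at 103 and 94.2, lay with the cKO group. Tardbp overlapped between control and cHet, so that it could not place cHet ID-2742 in either group. Without these 3, which leaves 1 cKO library, 25 of 36 members were above 0 in cKO against control, beside 51.3% of all genes, and 10 of 36 had another sign than with all libraries. These 3 are called the mismatched libraries below. The cKO library left without them, ID-2748, was male and high in neuron and skeletal muscle markers, while the controls were of both sexes. Sex and tissue content cannot be told apart from genotype in the cKO values of those fits. The 10 myelinating Schwann cell markers summed to 101678 to 130846 in control, 94875 to 133837 in cHet and 76691 to 107149 in cKO, with none at 0. Neuron markers stood high in control ID-2746, cHet ID-2742 and cKO ID-2748, skeletal muscle markers in control ID-2743 and cKO ID-2748, and adipocyte markers in control ID-2743 and ID-2754.

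No member passed the test in any of the comparisons between genotypes. In cKO against control, limma called 0 of the 36 tested members at an adjusted p under 0.05, while it called 1.57% of all genes tested, and 4 members were above control at an unadjusted p under 0.05 (Pdia3, P4hb, Hsp90b1 and Calr) with 0 below, beside 6.45% of all genes above and 6.44% below. In cKO against cHet it called 0 of 36, against 1.71% of all genes, with 4 above cHet at an unadjusted p under 0.05 (Pdia3, P4hb, Ddit3 and Xbp1) and 0 below, beside 7.89% of all genes above and 6.69% below. In cHet against control it called 0 of 36, against 0% of all genes, and 0 members had an unadjusted p under 0.05, beside 0.813% of all genes above and 1.9% below. The comparisons share libraries: the controls serve in both comparisons against control, and the cKO libraries in both comparisons of cKO.

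The intervals, taken gene by gene and in the deposited scaling, show how far each member may have moved. For cKO against control, the 95% confidence interval of the log2 fold change lay within 1 either way for 34 of the 36 tested members, the exceptions being Derl3 and Asns, and within 0.5 either way for 25. The median half-width of the interval was 0.27. The members were steady among animals, with a median coefficient of variation over the 9 libraries of 10.3%, beside 17.3% for all genes tested, and their median level was also higher, at 40.8 against 15.6. Dnajc3 varied least (4.21%) and Asns most (60.6%).

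The centre of the set lay slightly above that of all genes in each comparison. In cKO against control the median log2 fold change was 0.08 for the 36 tested members and -0.02 for all genes, and 27 of the 36 were above 0, against 46.4% of all genes. In cKO against cHet 27 of 36 were above 0, against 52.6% of all genes, and in cHet against control 19 of 36, against 43.4%, with a median of 0.02. The zero point moved with the scaling between libraries, for the members and all genes alike. With every library rescaled to the same sum the medians in cKO against control were 0.01 for the members and -0.09 for all genes, with 19 of 36 above 0 beside 36.6% of all genes. In the same setting cKO against cHet gave 11 of 36 beside 32.6%, and the median of all genes moved from 0.02 to -0.12. There cHet against control gave 28 of 36 beside 61.5%. Scaling by the median of ratios left 27, 27 and 20 of 36 above 0 in cKO against control, cKO against cHet and cHet against control, beside 46.8%, 50.4% and 47.7% of all genes. Quantile normalization gave 29, 24 and 28 of 36, beside 50.8%, 49.1% and 56.2%.

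**Figure D1:**
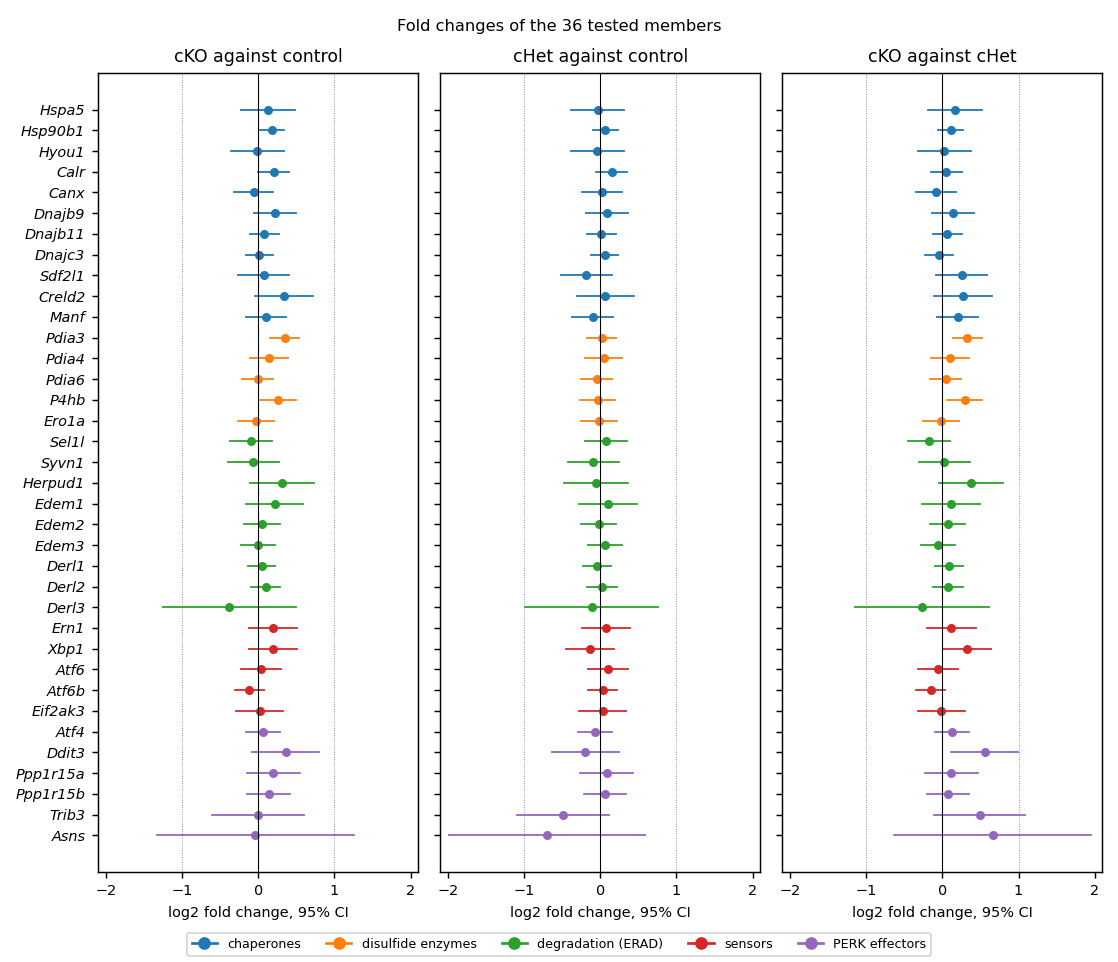
Log2 fold changes of the 36 tested members (points) with 95% confidence intervals (lines) in each comparison, from the limma fit on log2(normalized TPM + 0.5), coloured by role; dotted lines mark 1 either way. Most intervals are narrow and cross 0, and the widest are those of Asns, Derl3 and Trib3.

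The abundant chaperones were level or slightly above control in cKO. Hspa5 (BiP), the main Hsp70 chaperone of the ER and the most used readout of ER stress, had 205, 183 and 280 in control, 208, 199 and 235 in cHet and 239, 225 and 258 in cKO. Its groups overlapped, with the highest value in a control library, and cKO against control gave a log2 fold change of 0.13 (95% confidence interval -0.22 to 0.49, limma adjusted p = 0.806). Without the mismatched libraries the value was 0.23. Hsp90b1 (Grp94), the Hsp90 of the ER, had 243, 240 and 243 in control, 260, 248 and 252 in cHet and 268, 286 and 267 in cKO. All 3 groups were apart from each other, in the order control, cHet, cKO, with a log2 fold change of 0.18 between cKO and control (0.01 to 0.34, limma adjusted p = 0.346).

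Calr (calreticulin), a lectin chaperone that binds glycoproteins and calcium, had 242, 229 and 249 in control, 294, 252 and 255 in cHet and 285, 266 and 279 in cKO. Every cHet and cKO library lay above every control library, while cHet and cKO overlapped. In cKO against control it gave a log2 fold change of 0.20 (limma adjusted p = 0.387). Canx (calnexin), its membrane-bound relative, showed no such order, at 178, 219 and 211 in control, 200, 225 and 193 in cHet and 184, 216 and 183 in cKO.

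Of the co-chaperones, Dnajb9 (ERdj4), which feeds substrates to BiP and degradation, had 22.8, 22.5 and 20.4 in control, 25.2, 20.1 and 24.9 in cHet and 24.8, 23.5 and 28.8 in cKO. Its cKO values lay above the control values and overlapped with cHet, with a log2 fold change of 0.22 between cKO and control (limma adjusted p = 0.508), and 0.39 without the mismatched libraries. Dnajc3 (p58IPK), which also restrains PERK, held between 37.6 and 41.9 in all 9 libraries, and Dnajb11 (ERdj3) between 45.9 and 54.4. Hyou1 (Grp170), the nucleotide exchange factor of BiP, was 19.0 to 28.8, and Sdf2l1, a partner of ERdj3, was 8.40 to 12.8, with all groups overlapping for both. Creld2 and Manf, secreted proteins that ER stress induces, were 32.2 to 55.0 and 110 to 149. Creld2 had the largest difference of the chaperone group, a log2 fold change of 0.34 in cKO against control (-0.04 to 0.71), with control ID-2754 at 47.9 within the cKO range of 42.5 to 55.0.

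In the deposited scaling, the clearest separation in the set was among the disulfide enzymes. Pdia3 (ERp57), the isomerase that works with calnexin and calreticulin on glycoproteins, lies at chr2:121413775-121438687 of GRCm38 on the plus strand. It had 151, 147 and 133 in control, 157, 137 and 142 in cHet and 182, 180 and 185 in cKO. The cKO libraries averaged 182 ± 2.54 (SD, n = 3) and stood apart from the other 6. The log2 fold change was 0.35 against control (0.15 to 0.54, limma adjusted p = 0.102) and 0.33 against cHet (limma adjusted p = 0.113), short of the threshold in both. The exact permutation test gave p = 0.1 for each, two-sided, the lowest that 3 mice against 3 can give. After scaling by the median of ratios or quantile normalization, the cKO values of Pdia3 still stood above control and above cHet. With every library rescaled to the same sum, they stood above control and overlapped with cHet. Without the mismatched libraries the log2 fold change against control was 0.37 (limma adjusted p = 0.766). Pdia3 overlaps Catsper2 on the opposite strand, and the strandedness of the counting is not given in the sources used here.

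P4hb (PDI), the most general disulfide isomerase and a subunit of the collagen prolyl hydroxylase, had 165, 142 and 168 in control, 156, 157 and 150 in cHet and 190, 209 and 171 in cKO. After rescaling to the same sum, scaling by the median of ratios or quantile normalization, its cKO values stood above cHet and overlapped with control. In the deposited scaling the cKO libraries again stood above the other 6, though cKO ID-2748 and control ID-2754 were close, at 171 and 168. The log2 fold change was 0.26 against control (0.03 to 0.49, limma adjusted p = 0.32) and 0.29 against cHet (limma adjusted p = 0.228). Without the mismatched libraries it was 0.11 against control and 0.15 against cHet, and these include the cKO libraries at 190 and 209. The corresponding values were 0.14 for Hsp90b1, 0.22 for Calr and 0.35 for Ddit3. Pdia4 (ERp72) had 59.0, 47.7 and 59.3 in control and 60.5, 60.6 and 61.3 in cKO, apart by a narrow gap, while the cHet library ID-2745 reached 61.6. Pdia6 (P5) was 96.4 to 115 and Ero1a, the oxidase that returns the isomerases to their oxidized form, 23.5 to 29.0, both with overlapping groups and log2 fold changes of 0.00 and -0.03 between cKO and control, or -0.07 and -0.11 without the mismatched libraries.

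Over the set in the deposited scaling, every cKO library lay above the other 6 for 3 of 36 tested members, Hsp90b1, Pdia3 and P4hb. That is 8.33%, beside 6.17% of all genes tested. Every cKO library lay below the other 6 for 0 of 36, beside 5.65% of all genes. Against control alone, cKO was above without overlap for 6 members (Pdia3, P4hb, Hsp90b1, Calr, Dnajb9 and Pdia4), which is 16.7% beside 8.85% of all genes, and below for 0, against 8.57%. The number above was 1 of 36 (2.78%), Pdia3, after rescaling to the same sum, beside 5.71% of all genes, 4 (11.1%) after scaling by the median of ratios, beside 8.77%, and 3 (8.33%) after quantile normalization, beside 9.38%. Against cHet, 6 members were above without overlap, again 16.7%, beside 13.3% of all genes, and 1, Atf6b, below, against 11%. After rescaling to the same sum, 3 were above cHet (8.33%) and 3 below, beside 6.07% and 19.8% of all genes. Scaling by the median of ratios gave 6 and 1, beside 12.3% and 11.3%. Quantile normalization gave 4 and 2, beside 10.3% and 11.2%. For cHet against control 2 members were above (Calr and Hsp90b1), against 2.69% of all genes, and 2 below (Trib3 and Atf4), against 4.41%.

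**Figure D2:**
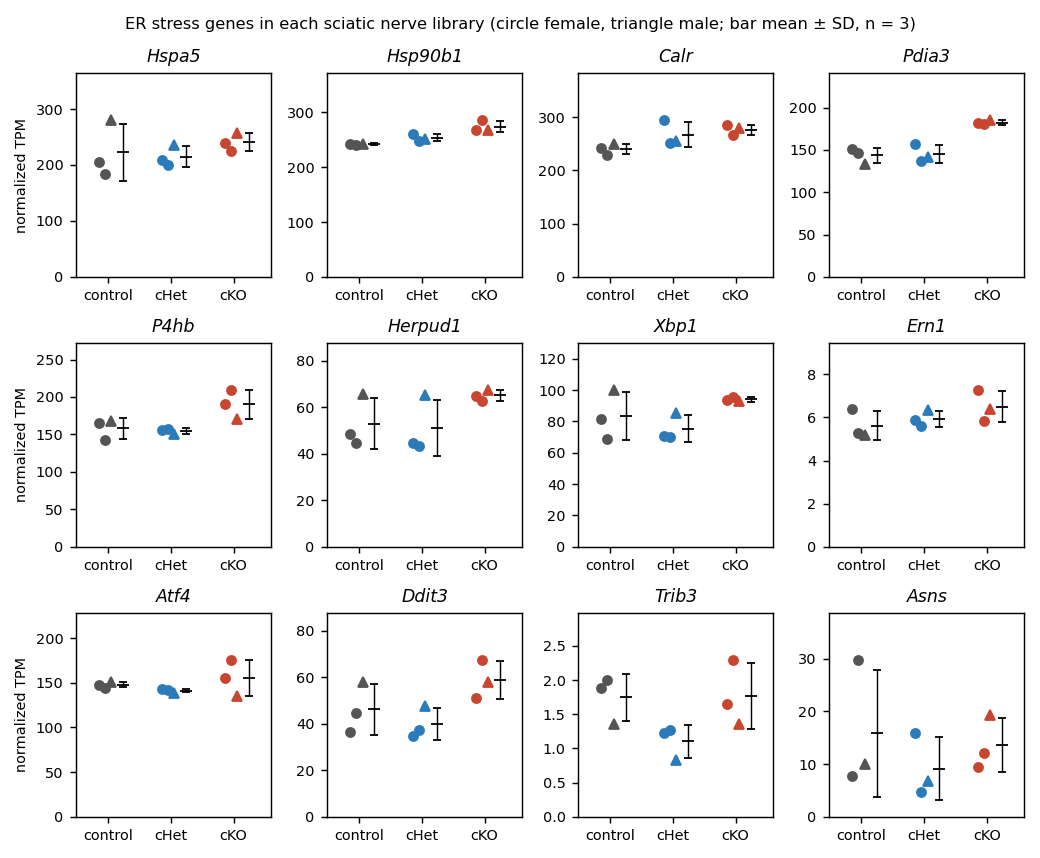
Normalized TPM of 12 members in each of the 9 libraries (circles female, triangles male), with the mean and SD of the 3 mice of each genotype beside them; axes start at 0. Pdia3 in cKO sits at 180 to 185, above the other 6 libraries, whereas the cKO values of Hspa5, Xbp1 and Herpud1 overlap with those of control.

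The ERAD factors, which recognise misfolded proteins and send them to the proteasome, had a median log2 fold change of 0.04 between cKO and control over 9 genes, none called. Herpud1, a membrane scaffold of the degradation complex, had 48.6, 44.7 and 65.7 in control, 44.5, 43.5 and 65.1 in cHet and 65.0, 62.9 and 67.3 in cKO. The cKO values were close to those of the single male library of control and of cHet, while the females of those genotypes were lower. In cKO against control it gave a log2 fold change of 0.31 (-0.11 to 0.73, limma adjusted p = 0.547), and 0.31 with sex as a covariate (limma adjusted p = 0.319). Herpud1 overlaps the antisense gene Gm15890.

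Sel1l and Syvn1 (HRD1), the adaptor and the ubiquitin ligase at the core of the pathway, were 37.8 to 53.0 and 15.4 to 22.0, with cKO within the range of the other groups but for Sel1l in cKO ID-2747, at 37.8 the lowest of the 9. Edem1, a mannose-binding factor that hands over glycoproteins, had 19.2, 14.5 and 21.0 in control and 19.9, 21.0 and 22.2 in cKO. Its relatives Edem2 (20.9 to 26.0) and Edem3 (18.5 to 23.0), and Derl1 (52.9 to 62.0) and Derl2 (26.2 to 31.5), which form part of the membrane channel, stayed within these narrow ranges in all 9 libraries. Derl3 was low in nerve, at 1.06, 1.76 and 2.16 in control, 1.74, 1.46 and 1.19 in cHet and 0.658, 2.30 and 0.823 in cKO. Its highest value, in cKO ID-2747, fell in the library with the highest sum of plasma cell and B cell markers (27.1, against 11.7 to 22.8 in the others), and the part of those cells was not tested.

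The sensors were expressed at modest levels, and none passed the test in any comparison. Ern1 (IRE1) had 6.42, 5.26 and 5.19 in control, 5.87, 5.59 and 6.32 in cHet and 7.27, 5.84 and 6.40 in cKO. Atf6 had 12.5, 11.0 and 11.7 in control, 12.1, 13.2 and 12.7 in cHet and 13.2, 10.5 and 12.8 in cKO. Eif2ak3 (PERK) had 18.0, 15.5 and 15.4 in control, 18.1, 15.2 and 17.0 in cHet and 16.7, 14.1 and 19.2 in cKO. The groups overlapped for each of these.

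Atf6b, the paralog of Atf6, had 29.0, 27.9 and 30.7 in control, 28.5, 30.7 and 30.5 in cHet and 27.1, 25.2 and 28.1 in cKO. In the deposited scaling it was the only member whose cKO values all lay below those of cHet. The log2 fold change was -0.15 (-0.34 to 0.04, limma adjusted p = 0.449). Xbp1, measured as total mRNA in its spliced and unspliced forms together, had 81.4, 69.0 and 100 in control, 71.0, 70.3 and 85.2 in cHet and 93.5, 95.8 and 93.2 in cKO. The cKO values were tight, above all cHet values and below control ID-2754. The log2 fold change was 0.32 against cHet (0.01 to 0.64, limma adjusted p = 0.329) and 0.19 against control (limma adjusted p = 0.645).

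Downstream of PERK, Atf4 itself had 148, 145 and 150 in control, 143, 142 and 139 in cHet and 155, 175 and 136 in cKO. The cKO group held both the highest and the lowest value, and since ATF4 is set mainly by translation its mRNA level is a partial readout. For cKO against control it gave 0.07 on the log2 scale, and -0.12 without the mismatched libraries. Ddit3 (CHOP), the transcription factor tied to death under lasting ER stress, had 36.3, 44.4 and 58.0 in control, 34.8, 37.3 and 47.7 in cHet and 51.0, 67.3 and 57.9 in cKO. The cKO values lay above all cHet values and overlapped with control. The log2 fold change was 0.55 against cHet (0.12 to 0.99, limma adjusted p = 0.228) and 0.36 against control (-0.08 to 0.80, limma adjusted p = 0.497). Ddit3 shares its locus with Gm4189 and Mars on the opposite strand and with a second Ensembl entry of the same symbol that was listed at 0 in every library.

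Ppp1r15a (GADD34) and Ppp1r15b (CReP), the inducible and the constitutive partner of the phosphatase that reverses the PERK signal, reached their highest values in cKO ID-2747. Ppp1r15a had 48.4, 51.5 and 61.7 in control, 51.6, 57.8 and 61.4 in cHet and 60.7, 75.1 and 51.4 in cKO. Ppp1r15b had 34.9, 36.2 and 42.4 in control, 34.8, 42.1 and 41.6 in cHet and 39.6, 46.6 and 38.6 in cKO. The groups overlapped for both genes. For Ppp1r15a, cKO differed from control by 0.20 on the log2 scale, and by -0.06 without the mismatched libraries, of which cKO ID-2747 is 1.

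Trib3, a pseudokinase that ATF4 and CHOP induce, was low, at 1.88, 2.01 and 1.36 in control, 1.22, 1.26 and 0.830 in cHet and 1.65, 2.29 and 1.36 in cKO. It stood lower in cHet than in each of the other groups without overlap, and its log2 fold change was 0.00 in cKO against control and -0.49 in cHet against control (-1.09 to 0.12). Without the mismatched libraries cKO against control gave -0.26 for Trib3. Chac1, which breaks down glutathione and is among the strongest ATF4 targets in stressed cells, had 1.20, 1.40 and 0.661 in control, 0.894, 0.478 and 0.413 in cHet and 0.381, 0.460 and 1.70 in cKO. With a mean of 0.844 it was not tested.

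**Figure D3:**
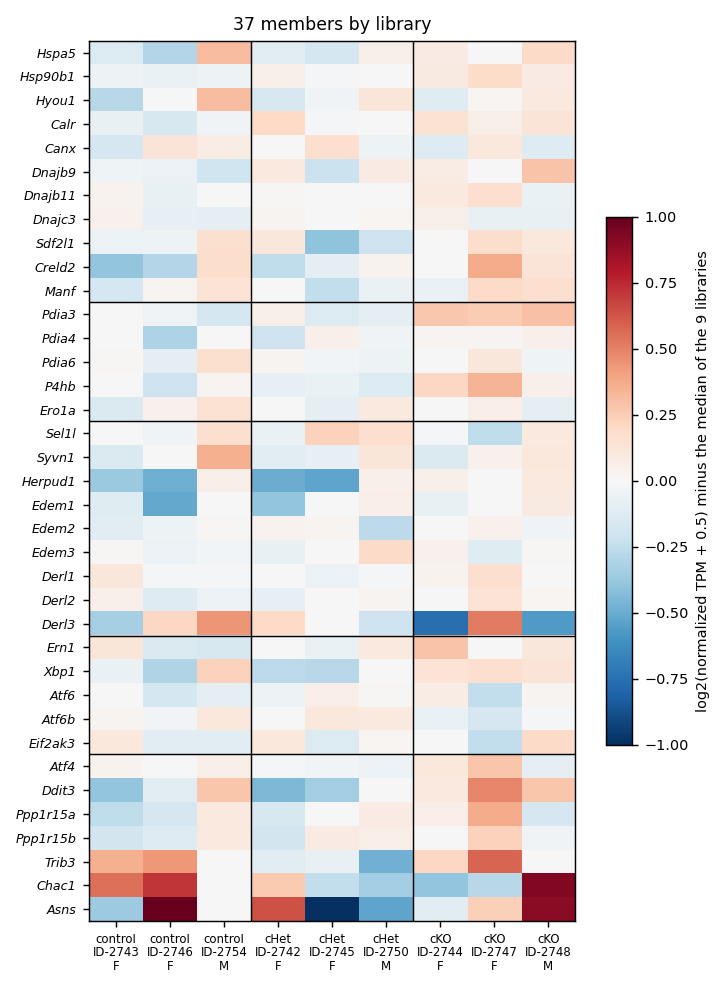
Each of the 37 members in each library, as log2(normalized TPM + 0.5) minus its median over the 9 libraries, ordered by role from chaperones at the top to PERK effectors at the bottom. Pdia3, P4hb and Hsp90b1 are above their median in all cKO libraries, while Derl3, Chac1 and Asns vary between libraries of the same genotype.

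By branch, the 16 genes assigned to ATF6 had a median log2 fold change of 0.12 between cKO and control, the 12 of IRE1 and XBP1 0.06 and the 8 tested of PERK and ATF4 0.04, against -0.02 for all genes. Each gene was counted under 1 branch only, although chaperones and degradation factors respond to both ATF6 and XBP1, and each branch includes its own sensor. The order of these medians is therefore not a readout of separate branches. In cKO against cHet the medians of the branches were 0.10, 0.07 and 0.12, with 0.31 for the 6 tested effectors, where cHet was the low group for Trib3, Ddit3 and Asns. Without the mismatched libraries the medians were 0.13, 0.04 and -0.01 in cKO against control and 0.11, 0.04 and 0.10 in cKO against cHet. The medians over all genes were then 0.01 in cKO against control and 0.06 in cKO against cHet. No branch held a called gene in any comparison.

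Asns, asparagine synthetase, an ATF4 target in amino acid shortage, varied by a ratio of 6.40 between libraries, with all genotypes overlapping. It had 7.74, 29.7 and 10.1 in control, 15.9, 4.65 and 6.85 in cHet and 9.38, 12.0 and 19.3 in cKO. The highest library of each genotype was the one in which neuron markers stood high: control ID-2746, cHet ID-2742 and cKO ID-2748. Asns was 15.9 to 29.7 in these and 4.65 to 12.0 in the other 6. The 12 neuron markers, all above 0 in every library, summed to 183 to 3869 in control, 185 to 1523 in cHet and 331 to 1666 in cKO. Chac1 was 0.894 to 1.70 in the 3 neuron-high libraries and 0.381 to 1.20 in the others. Hspa5 did not follow them, at 183 to 258 in the 3 and 199 to 280 in the others. In cKO against control Asns gave a log2 fold change of -0.04 (-1.32 to 1.25), 0.25 without the 3 neuron-high libraries and 0.52 without the mismatched ones. The part of neuronal RNA in the level of Asns was not tested.

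**Figure D4:**
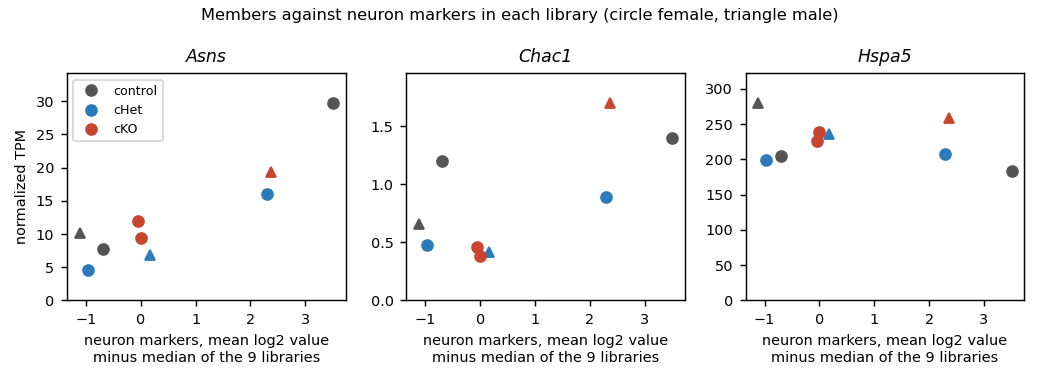
Normalized TPM of Asns, Chac1 and Hspa5 in each library against the mean log2 level of 12 neuron markers relative to the median library, coloured by genotype (circles female, triangles male). The 3 libraries to the right, 1 of each genotype, hold the 3 highest Asns values, and Hspa5 shows no such order.

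Each genotype had 2 female libraries and 1 male, and some members were highest or lowest in the male of each. This comparison was added after the values of Hspa5 and Herpud1 were seen, so that these 2 are given as a description. The male library was the highest of its genotype in all 3 genotypes for 5 of 36 tested members, Herpud1, Hspa5, Syvn1, Hyou1 and Edem1, against 2.77% of all genes, and the lowest for 1, Trib3, against 4.66%. Hspa5 and Herpud1 themselves prompted the count, and without them it was 3 of 34. The male against female log2 fold change, fitted with genotype, was 0.38 for Herpud1, 0.30 for Hspa5, 0.27 for Syvn1, 0.27 for Hyou1 and 0.23 for Edem1. None was called (limma adjusted p = 0.999 for each), with 4 of 36 higher in males at an unadjusted p under 0.05 and 2 of 34 without Hspa5 and Herpud1, beside 1.6% of all genes, and limma called 0.0333% of all genes by sex. The male and female ranges of Herpud1 were far apart in control (65.7 against 44.7 and 48.6) and cHet (65.1 against 43.5 and 44.5) and close in cKO (67.3 against 62.9 and 65.0). With 1 male per genotype the difference between genotypes in this gap was not tested. All 10 adipocyte markers had a male against female log2 fold change above 0 in that fit, with a median of 1.32 and none called. Their sums were 2156, 108 and 3038 in control, 533, 75.0 and 587 in cHet and 373, 463 and 406 in cKO, the male last in each, so that the male was the highest in control and cHet and not in cKO. The part of adipocytes in these differences was not tested.

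Beyond the members, 117 other genes of ER function were read from lists of oxidoreductases, co-chaperones and prolyl isomerases, glycosylation, translocon, degradation, sensors and ATF4 targets, and 113 were tested. In cKO against control 1 of the 113 was called higher, Uggt2, and 0 lower, beside 1.57% of all genes called. At an unadjusted p under 0.05, 18 were above and 6 below, beside 6.45% of all genes above and 6.44% below. Uggt2, a glucosyltransferase that marks incompletely folded glycoproteins for another round with calnexin and calreticulin, had 18.6, 15.3 and 14.3 in control, 19.0, 23.0 and 19.4 in cHet and 29.6, 28.2 and 28.6 in cKO. The groups followed each other without overlap, with a log2 fold change of 0.83 between cKO and control (0.55 to 1.10, limma adjusted p = 0.0161). Uggt2 lies at chr14:118985039-119099430 on the minus strand, next to the member Dnajc3 at chr14:118937976-118981697, which differed by 0.02 on the log2 scale between cKO and control. The Uggt2 call was lost under 9 of 23 alternatives, with a limma adjusted p of up to 0.574. Among these were the fits without control ID-2754 (0.75, limma adjusted p = 0.051), cKO ID-2744 (0.81, limma adjusted p = 0.0919), cKO ID-2747 (0.84, limma adjusted p = 0.0557) or cKO ID-2748 (0.83, limma adjusted p = 0.063).

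In cKO against cHet 2 of the 113 were called higher and 0 lower, beside 1.71% of all genes called. Sec61g, the small gamma subunit of the channel through which new proteins enter the ER, had 29.9, 27.9 and 24.7 in control, 21.5, 20.9 and 21.9 in cHet and 36.3, 51.3 and 35.8 in cKO (log2 fold change 0.91 against cHet, limma adjusted p = 0.0236). Creb3, an ER membrane transcription factor cut like ATF6, had 42.4, 51.9 and 48.5 in control, 43.9, 48.6 and 39.4 in cHet and 70.4, 71.6 and 59.6 in cKO (log2 fold change 0.61 against cHet, limma adjusted p = 0.0483). For both genes every cKO library lay above the other 6, and neither passed against control (limma adjusted p = 0.124 for Sec61g and 0.0982 for Creb3). The Creb3 call was lost under 20 of 23 alternatives, among them each of the 9 fits without 1 library (limma adjusted p = 0.0537 to 0.176), and that of Sec61g under 10, among them the fits without any 1 of the cHet libraries, cKO ID-2744 or cKO ID-2748 (limma adjusted p = 0.0572 to 0.109). In cHet against control 0 of 113 were called, against 0% of all genes. At an unadjusted p under 0.05, 2 were above and 2 below, beside 0.813% of all genes above and 1.9% below.

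The 15 translocon and signal peptidase genes had a median log2 fold change of 0.19 between cKO and control. Of these, 8 were above control at an unadjusted p under 0.05 and 0 below, beside 6.45% of all genes above and 6.44% below. None was called (lowest limma adjusted p = 0.081), beside 1.57% of all genes. The list stood highest in cKO ID-2747, the library with the highest sum. The 19 other degradation factors had a median of 0.10 and the 20 tested ATF4 targets 0.06, with 0 called in each list.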

How the data were processed

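RNA of sciatic nerve from 9 mice was sequenced by the authors as paired reads from TruSeq libraries. The deposited table holds 1 signal per gene and library, which the authors made as normalized TPM. Tools credited in the submitters' processing notes are kallisto 0.44.0 and sleuth 0.30.0, with the build GRCm38. Scaling between libraries, annotation release and strandedness were not given in the sources used here. Read depth cannot be recovered from TPM, which leaves the counting error of each value unknown.

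Symbols were matched by Ensembl identifier for 35471 genes, Ero1a through a RefSeq synonym. Genes with a mean of at least 1 (15014) were taken as log2(value + 0.5), which understates changes of low genes, and fitted over all 9 libraries in R 4.3.3 by limma 3.58.1 (functions lmFit, contrasts.fit and eBayes, the last with trend), with Benjamini-Hochberg adjustment over all tested genes and a threshold of 0.05. Single genes were also tested with two-sided exact permutation tests. The fit was tested on simulated data. Groups came from the sample titles, and all libraries and columns were used. Alternatives changed the pseudocount, filter, scaling, fit, covariate or libraries. The members and gene lists were chosen with earlier results of these data known, and the comparison of the sexes, the fits without libraries high in muscle or adipocyte markers and the choice of promoters shown were added after values were seen. All 37 members are named, and of each other ER list up to 3 genes that passed the threshold. Overlaps on the opposite strand are named for Pdia3, Herpud1 and Ddit3 because reads of the partners may be counted together. Other genes overlap opposite-strand genes too, among them Uggt2 (Gm16835), Creb3 (Tln1 and Gba2), Hsp90b1, Pdia6, Ppp1r15a, Manf, Derl2 and Syvn1.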

Additional observations from a re-analysis of the deposited data

How the results depend on the processing

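The count of members called stayed at 0 under all 23 alternatives in each of the 3 comparisons between genotypes, and under the 21 run for sex. The log2 fold change of Pdia3 between cKO and control ranged from 0.28 to 0.38, with limma adjusted p from 0.0764 to 0.766. Uncalled members changed sign in 61 of 826 refits in cKO against control, 68 of 826 in cHet against control and 49 of 826 in cKO against cHet. The count of members in cKO above control without overlap, 6, ranged from 1 to 21 over 15 alternatives, and libraries left out make such separation easier by construction.

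Of the other ER genes, the 1 called in cKO against control became 0 with only the 2 groups compared in the fit, and 0 without the libraries whose genotype field differs or those high in markers of neurons, muscle or adipocytes, and ranged from 0 to 1 when each library was left out. The 2 called in cKO against cHet became 1 without a filter on low values, with libraries rescaled to the same sum, with quantile normalization and with eBayes without trend, became 0 in the same 5 settings as above, and ranged from 0 to 2 when each library was left out. For Tardbp, cKO against control, the difference kept its size but not its call without the libraries whose genotype field differs (-0.94, limma adjusted p = 0.358), those high in neuron markers (-1.02, limma adjusted p = 0.0823) and those high in adipocyte markers (-0.95, limma adjusted p = 0.0533), settings with fewer samples. Over all genes in cKO against control, the 140 called higher ranged from 0 to 151 and the 95 called lower from 0 to 116.

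No paired analysis was possible because the labels give mouse identifiers and no replicate numbers shared between groups. TPM carry no read counts, so that low genes such as Derl3, Trib3 and Chac1 have an unknown counting error, and 3 mice per genotype leave intervals with a median half-width of 0.27 on the log2 scale.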
